A study of Mus musculus with 2 samples.

Results

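Levels of 10 genes of the TGF-beta signalling pathway were read from total RNA sequencing of mouse hematopoietic stem cells. The genes are the ligand gene Tgfb1, the receptor genes Tgfbr1, Tgfbr2 and Tgfbr3, the Smad genes Smad2, Smad3, Smad4 and Smad7, and the repressor genes Ski and Skil. They were matched by symbol to Ensembl gene identifiers, and all 10 were found among the 43346 mouse genes of the tables. The study holds a single group of 2 libraries, numbered biological replicates 1 and 2, each made from 100 hematopoietic stem cells of adult male C57BL/6J mice aged 5 to 6 weeks. Both libraries carry the same donor identifier, and the labels do not say that different animals were used, so part or all of the spread between the libraries may be technical. A pool of 100 cells gives no level for any one cell, and fewer cells that express a gene cannot be told apart from less RNA per cell. With no second condition there is no test between groups, and the genes were compared with each other within each library.

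TGF-beta is made as a latent precursor that has to be released before it can bind. The freed ligand binds the type II receptor, which phosphorylates the type I receptor, and the type I receptor in turn phosphorylates Smad2 and Smad3, which enter the nucleus with Smad4 and act on target genes. Smad7 blocks the receptors, and Ski and the Ski-like protein SnoN, the product of Skil, hold Smad complexes in a repressed state. In adult bone marrow, TGF-beta is known for keeping hematopoietic stem cells out of the cell cycle.

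Expected counts (reads assigned to a gene, with reads of several possible origins shared out) summed to 48313341 in replicate 1 and 28947093 in replicate 2. Nuclear protein coding genes, which held 30.0% and 26.5% of TPM, had 1.88 times as many counts in replicate 1 as in replicate 2. Of 7 stem cell markers, 6 were detected in both libraries, and the 7 summed to 461.2 and 325.3 TPM (replicate 1, then replicate 2, here and wherever a pair of values has no other label). Kit stood at 107.5 and 117.0 TPM and Procr at 3.29 and 6.48 TPM, both higher in replicate 2. Hlf (161.7 and 98.0 TPM), Meis1 (86.7 and 60.2 TPM), Mecom (52.0 and 17.9 TPM) and Ly6a (47.0 and 25.3 TPM) were lower in replicate 2. Slamf1, which encodes CD150, a protein used to sort stem cells, reached 2.87 TPM in replicate 1 but only 0.36 TPM in replicate 2, where it missed detection. Markers of mature neutrophils and monocytes set the libraries apart: all 7 were over 2-fold higher in replicate 2, and their summed level was 5.11 TPM in replicate 1 and 342.6 in replicate 2. Summed megakaryocyte and platelet markers (6 genes) stood at 20.4 and 44.9 TPM, B cell markers (6) at 9.08 and 23.2 TPM, and T and NK markers (6) at 58.4 and 64.9 TPM. The like sums of the T and NK markers hide differences, as Nkg7 alone was at 36.2 and 55.8 TPM. Of these 6 markers, 4 were over 2-fold higher in replicate 1 and 1 in replicate 2. Macrophage markers (6) summed to 8.84 and 10.9 TPM, endothelial markers (6) to 39.8 and 27.6 TPM and stromal and bone markers (6) to 4.52 and 5.96 TPM. The endothelial genes Cdh5 and Kdr and the stromal genes Col1a1, Pdgfra, Cxcl12 and Lepr had no counts in either library. Other markers of these lists were detected in both. They were the endothelial genes Pecam1 (35.98 and 20.56 TPM), Emcn (1.88 and 3.31 TPM) and Tek (1.94 and 1.71 TPM), and the stromal gene Pdgfrb (4.52 and 5.76 TPM). Pecam1 and Pdgfrb held most of the sum of their lists in both libraries. Plvap (endothelial) and Col1a2 (stromal) had counts in replicate 2 only. The part of other cells in the levels below was not tested.

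All 10 genes were detected in both libraries, detection being a TPM (a length-corrected share of all transcripts) of at least 1 with an expected count of at least 10. The same rule passed 24.7% of all mouse genes and 45.5% of protein coding genes. The median of the 10 genes was 10.9 TPM in replicate 1 and 11.3 in replicate 2, beside medians of 13.2 and 11.7 TPM over the 10685 genes detected in both libraries. The set as a whole thus lay near the middle of the detected genes, with the ligand far above it.

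**Figure D1:**
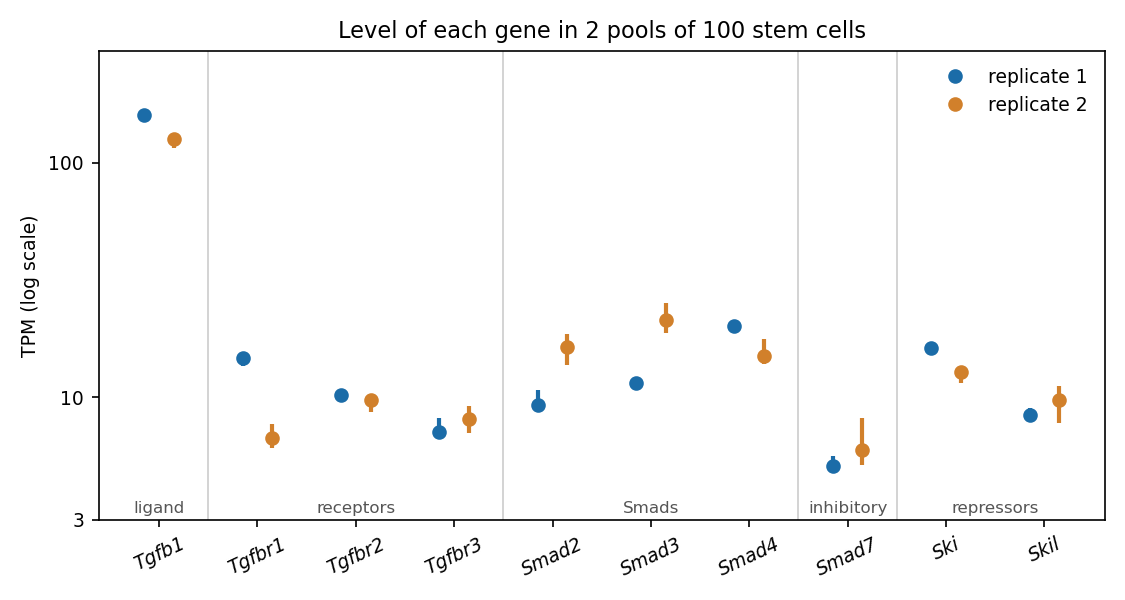
TPM of each of the 10 genes in replicate 1 (blue) and replicate 2 (orange), on a log scale, grouped by role; vertical bars are the lower and upper bounds deposited with each value. Tgfb1 is at 159.6 and 126.7 TPM, and the other 9 genes lie between 5.07 and 21.3 TPM.

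Tgfb1, which encodes the ligand TGF-beta 1, was by far the most abundant of the 10 genes. It stood at 159.6 TPM in replicate 1 and 126.7 in replicate 2 (143.1 ± 23.3, SD, n = 2), from expected counts of 7264 and 3369. In both libraries it was higher than 97% of the genes detected in both, at percentiles 97.6 and 97.2. Tgfb1 alone made up 60.9% of the summed TPM of the 10 genes in replicate 1 and 54.5% in replicate 2. Its lowest level, 126.7 TPM, lay above the highest level of any of the other 9, the 21.3 TPM of Smad3 in replicate 2.

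Not all of the Tgfb1 level was on the transcript that encodes the ligand. The full coding transcript Tgfb1-201 (chromosome 7, 25687002 to 25705077, plus strand, GRCm38) was at 95.7 TPM in replicate 1 and 79.4 in replicate 2, which is 59.9% and 62.7% of the gene. The rest was on Tgfb1-202 (30.4 and 29.1 TPM), annotated as a target of nonsense-mediated decay, and on Tgfb1-203 (33.6 and 18.1 TPM), annotated as a retained intron. These are short models, of 700 and 495 bases, that overlap the exons of the coding transcript of 2175 bases. By expected counts, which do not weight by length, the coding transcript held 86.7% of the gene in replicate 1 and 87.5% in replicate 2. On coding transcripts alone Tgfb1 was still the highest of the 10 genes in both libraries.

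The receptor genes were much lower than the ligand gene and close to each other. Tgfbr2 encodes the type II receptor that binds the ligand first, and by TPM it varied least of the 10 genes between the libraries, at 10.3 TPM in replicate 1 and 9.77 in replicate 2 (10.02 ± 0.35, SD, n = 2). Tgfbr1 encodes the type I receptor kinase, and it was at 14.8 TPM in replicate 1 and 6.73 in replicate 2 (10.7 ± 5.68). Tgfbr3 encodes betaglycan, a co-receptor that presents the ligand, and it was at 7.13 and 8.07 TPM (7.60 ± 0.66). Tgfbr1 was therefore the highest receptor gene of replicate 1 and the lowest of replicate 2, and the order of Tgfbr1 and Tgfbr2 was not the same in the libraries. Tgfbr3 lay below Tgfbr2 in both. In GRCm38, Tgfbr1 lies on chromosome 4 at 47353222 to 47414931 (plus strand), Tgfbr2 on chromosome 9 at 116084293 to 116175360 and Tgfbr3 on chromosome 5 at 107106570 to 107289629 (both minus strand).

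The Tgfbr1 counts were split between transcripts that start at different places. Tgfbr1-201 starts at chromosome 4, 47353222 (plus strand, GRCm38), has 9 exons and 1509 coding bases, and stood at 7.35 TPM in replicate 1 and 5.36 in replicate 2. Tgfbr1-203 starts 32994 bases downstream at 47386216, has 8 exons, of which 6 have the same bounds as exons of Tgfbr1-201, and 1260 coding bases. It stood at 7.41 TPM in replicate 1 and 1.37 in replicate 2. In TPM, the difference in Tgfbr1 between the libraries lay mostly on this downstream transcript: the deposited bounds were 6.35 to 8.09 TPM in replicate 1 and 0.81 to 1.82 TPM in replicate 2. TPM gives more weight to this model of 1713 bases than to Tgfbr1-201, of 5756 bases. By expected counts Tgfbr1-203 held 22.2% of the gene in replicate 1 (378 counts) and 6.69% in replicate 2 (39 counts). Tgfbr1-201 had 1328 and 548 counts. Tgfbr1-203 lacks the coding exons at the start of Tgfbr1-201, which encode the signal peptide and most of the part of the receptor outside the cell. By TPM, Tgfbr1-203 made up 50.2% of the gene in replicate 1 and 20.4% in replicate 2.

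The sequences before the starts of these transcripts are shown because they are the only Tgfbr1 starts with a RefSeq promoter in the table used, and they look different. Each is the 250 bases before the start (RefSeq, GRCm38.p6, chromosome 4, plus strand), chr4:47352972-47353221 for the upstream start and chr4:47385966-47386215 for the downstream start. Capitals mark the motifs searched on both strands, GGGCGG (a GC box), TATAAA, GTCTAGAC (a palindromic Smad-binding element) and CAGACA.
Tgfbr1 upstream start: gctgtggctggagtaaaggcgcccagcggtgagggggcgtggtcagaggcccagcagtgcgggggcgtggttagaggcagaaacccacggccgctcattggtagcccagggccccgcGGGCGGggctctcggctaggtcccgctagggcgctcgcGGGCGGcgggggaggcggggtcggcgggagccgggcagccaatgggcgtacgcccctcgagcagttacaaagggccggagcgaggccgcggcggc
Tgfbr1 downstream start: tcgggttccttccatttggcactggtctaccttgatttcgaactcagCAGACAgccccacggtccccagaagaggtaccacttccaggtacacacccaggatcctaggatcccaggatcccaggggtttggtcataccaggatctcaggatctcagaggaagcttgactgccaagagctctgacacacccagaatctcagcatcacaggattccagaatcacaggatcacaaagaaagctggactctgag
The upstream window had 74.8% G and C and 29 CpG dinucleotides, more CpG than 93.2% of 32851 promoter windows of this length. The downstream window had 52.8% G and C and 3 CpG, beside a median of 6. The upstream window held 2 GC boxes and the downstream window none, and 32.7% of all windows held at least 1. CAGACA was found once, in the downstream window, and occurs in 17.1% of windows. TATAAA (12.4% of windows) and GTCTAGAC (0.167%) were in neither.

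Tgfbr2 was at nearly the same level in the libraries but in different forms. The coding transcripts Tgfbr2-202 and Tgfbr2-201 differ by an exon of 75 bases, or 25 codons, near the start of the reading frame, and the form with it is known as the type II-B receptor. All of the gene in replicate 1 was assigned to the form with the exon (10.3 TPM, and 0 TPM without it). In replicate 2 the form with the exon was at 4.40 TPM and the form without it at 5.37 TPM, so that 45.0% of the gene had the exon. The deposited bounds of the form without the exon reached 0.21 TPM at most in replicate 1 and ran from 3.61 to 6.52 TPM in replicate 2, so they do not overlap. The exon lies on the minus strand at chr9:116158271-116158345 and is printed in capitals, between 15 bases of the exons on either side.
Tgfbr2 alternative exon: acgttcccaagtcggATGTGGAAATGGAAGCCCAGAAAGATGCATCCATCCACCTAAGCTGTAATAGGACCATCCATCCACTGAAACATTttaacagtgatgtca
The lengths deposited for these transcripts, 4785 and 4710 bases, differ by those 75 bases and are not those of the later annotation used for positions (8092 and 3476 bases). The assignment therefore rests on the reads that meet this exon or its junctions, and their number is not in the tables.

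Among the Smads that carry the signal, levels in TPM crossed between the libraries. Smad2, which is phosphorylated by the type I receptor, was at 9.24 TPM in replicate 1 and 16.4 in replicate 2 (12.8 ± 5.08, SD, n = 2). Smad3, its close relative, was at 11.5 and 21.3 TPM (16.4 ± 6.94). Smad4, the shared partner, was at 20.04 and 14.9 TPM (17.5 ± 3.61). Smad3 was above Smad2 in both libraries, whereas Smad4 was the highest of the 3 in replicate 1 and the lowest in replicate 2. Summed, they made up 15.5% of the TPM of the 10 genes in replicate 1 and 22.7% in replicate 2, more than the receptors (12.3% and 10.6%).

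The higher TPM of Smad2 and Smad3 in replicate 2 came with shorter mean transcript lengths. Smad2 had 811 counts in replicate 1 and 490 in replicate 2, a ratio of 1.66 beside 1.88 for all nuclear coding genes, and Smad3 had 1830 and 1221. The mean transcript length behind the TPM was 2857 bases for Smad2 in replicate 1 and 1773 bases in replicate 2, and 5090 and 3290 bases for Smad3. All counts of replicate 1 were assigned to the full-length models Smad2-205 and Smad3-201. In replicate 2 short models took a part, such as Smad3-203 (406 bases, 24 counts, 4.79 TPM) and Smad2-206 (972 bases, 64 counts, 4.21 TPM). With 1 fixed length per gene, that of its longest transcript, Smad2 was at 11.1 and 11.6 TPM and Smad3 at 14.1 and 16.2 TPM. On that scale Smad2 differed by -0.05 and Smad3 by -0.19 in log2(TPM + 1), replicate 1 minus replicate 2, against -0.77 and -0.84 on the deposited scale.

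For Smad4 the same protein-coding length was split over different models. Smad4-201 and Smad4-202, both with 1653 coding bases, stood at 14.9 and 5.10 TPM in replicate 1 and at 4.64 and 10.3 TPM in replicate 2. Smad7, the inhibitory Smad, was the lowest of the 10 genes in both libraries over all transcripts, at 5.07 TPM in replicate 1 and 5.98 in replicate 2 (5.53 ± 0.64, SD, n = 2). On coding transcripts Ski (4.14 TPM) and Tgfbr3 (4.82 TPM) lay below it in replicate 1, and with a fixed length Skil (4.98 TPM, against 5.44 TPM for Smad7) did in replicate 2. Smad2, Smad4 and Smad7 lie on chromosome 18, Smad4 at 73639009 to 73703780 on the minus strand, Smad7 at 75367529 to 75395935 and Smad2 at 76241580 to 76310963 on the plus strand (GRCm38). Smad3 lies on chromosome 9 at 63646767 to 63757994 on the minus strand.

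The repressor genes lay within the range of the Smad genes. Ski was at 16.2 TPM in replicate 1 and 12.8 in replicate 2 (14.5 ± 2.40, SD, n = 2), and Skil at 8.37 and 9.70 TPM (9.04 ± 0.94). Counted over all transcripts, Ski was above Skil in both libraries. Ski lies on chromosome 4 at 155154075 to 155222592 (minus strand) and Skil on chromosome 3 at 31095058 to 31122577 (plus strand). Most of the Ski TPM, however, was on Ski-203, a transcript with no annotated reading frame: 12.01 TPM in replicate 1 and 6.80 in replicate 2. By expected counts Ski-203 held 71.1% of the gene in replicate 1 but 48.1% in replicate 2. It shares 6 of its 7 exons with the coding transcript Ski-201, but begins with an exon of 40 bases at chromosome 4, 155188257 to 155188296 (minus strand), in place of the first exon of Ski-201, which holds 969 of the 2181 coding bases. Coding transcripts carried 25.6% of Ski TPM in replicate 1 and 46.7% in replicate 2, the lowest shares among the 10 genes. Over 9769 nuclear coding genes detected in both libraries, the median share was 100% in replicate 1 and 88.9% in replicate 2.

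**Figure D2:**
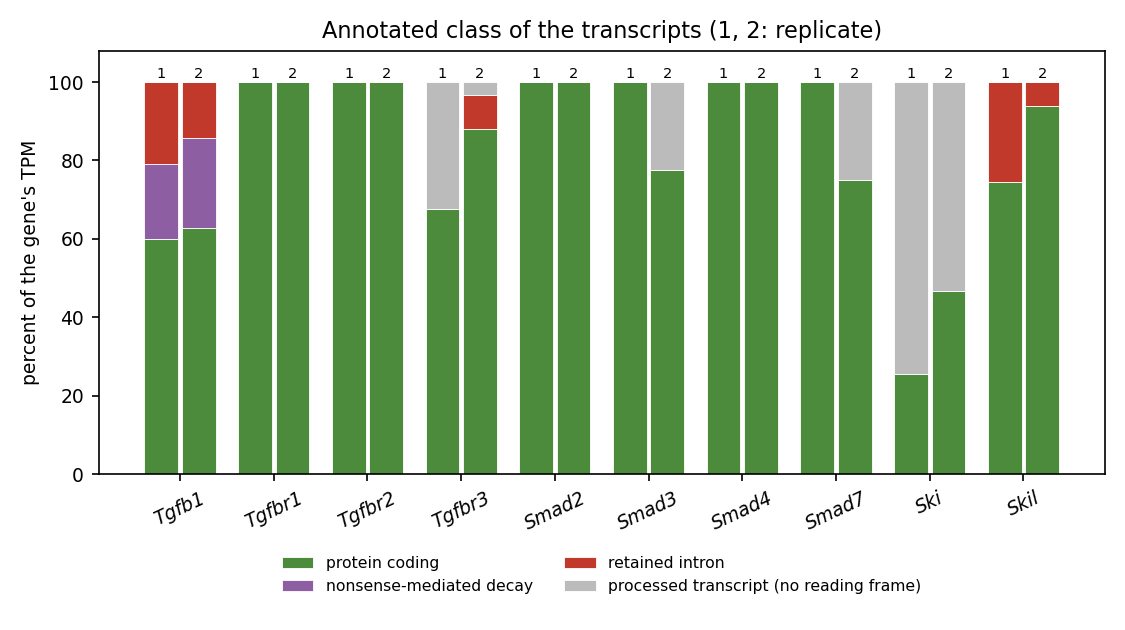
Percent of each gene's TPM on transcripts of each annotated class, with replicate 1 as the left bar and replicate 2 as the right bar of a pair. Ski has 25.6% and 46.7% on coding transcripts, whereas Tgfbr1 and Tgfbr2 have 100% in both libraries.

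On coding transcripts alone the order of the repressors turned round, in replicate 2 only with a short Skil model included. Coding Ski transcripts were at 4.14 TPM in replicate 1 and 5.96 in replicate 2, and coding Skil transcripts at 6.23 and 9.12 TPM. In replicate 2, 4.63 TPM of coding Skil were on Skil-205, a model of 716 bases with 49 counts. The other coding Skil models, at 2.57, 1.82 and 0.10 TPM, together lay below Ski there. The log2 ratio of Ski over Skil was 0.94 in replicate 1 and 0.39 in replicate 2 over all transcripts, and -0.58 and -0.61 over coding transcripts.

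The coding forms of Ski and of Skil also traded places between the libraries. Ski-201 and Ski-202 differ within the reading frame by 156 bases, 52 codons with 75.6% G and C, which Ski-202 lacks. Their deposited lengths differ by 213 bases, so these models also differ outside this segment, and the assignment of reads need not rest on it. Ski-201 was at 0.16 TPM in replicate 1 and 5.96 in replicate 2, and Ski-202 at 3.98 and 0 TPM. For Skil, the transcripts with the longer reading frame (Skil-201 and Skil-203) summed to 6.23 TPM in replicate 1 and 1.82 in replicate 2. Those that use an earlier splice site in an internal exon (Skil-204 and Skil-202) summed to 0 and 2.67 TPM. Skil-204, which encodes the form known as SnoN2, has 138 coding bases, or 46 codons, fewer than Skil-201, and Skil-202 lacks these and further coding bases (1647 of 2025 are left). The long form thus made up 100% of these Skil transcripts in replicate 1 and 40.5% in replicate 2. The segments are shown in capitals between 15 bases of flanking exon, at chr4:155222202-155222357 (minus strand) for Ski and chr3:31113503-31113640 (plus strand) for Skil.
Ski segment: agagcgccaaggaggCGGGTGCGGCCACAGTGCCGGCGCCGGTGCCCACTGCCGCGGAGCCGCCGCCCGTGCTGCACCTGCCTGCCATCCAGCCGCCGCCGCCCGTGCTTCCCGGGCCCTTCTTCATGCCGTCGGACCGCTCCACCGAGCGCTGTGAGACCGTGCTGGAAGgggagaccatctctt
Skil segment: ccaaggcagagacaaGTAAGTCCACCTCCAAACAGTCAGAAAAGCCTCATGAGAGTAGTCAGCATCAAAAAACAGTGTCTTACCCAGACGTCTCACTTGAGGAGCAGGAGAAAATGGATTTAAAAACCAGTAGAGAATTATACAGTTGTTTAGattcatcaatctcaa
Both segments, like the Tgfbr2 exon, hold a whole number of codons, so the reading frame is kept with or without them. A further Skil model, Skil-205 (716 bases), took 4.63 TPM in replicate 2 from 49 counts and none in replicate 1.

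**Figure D3:**
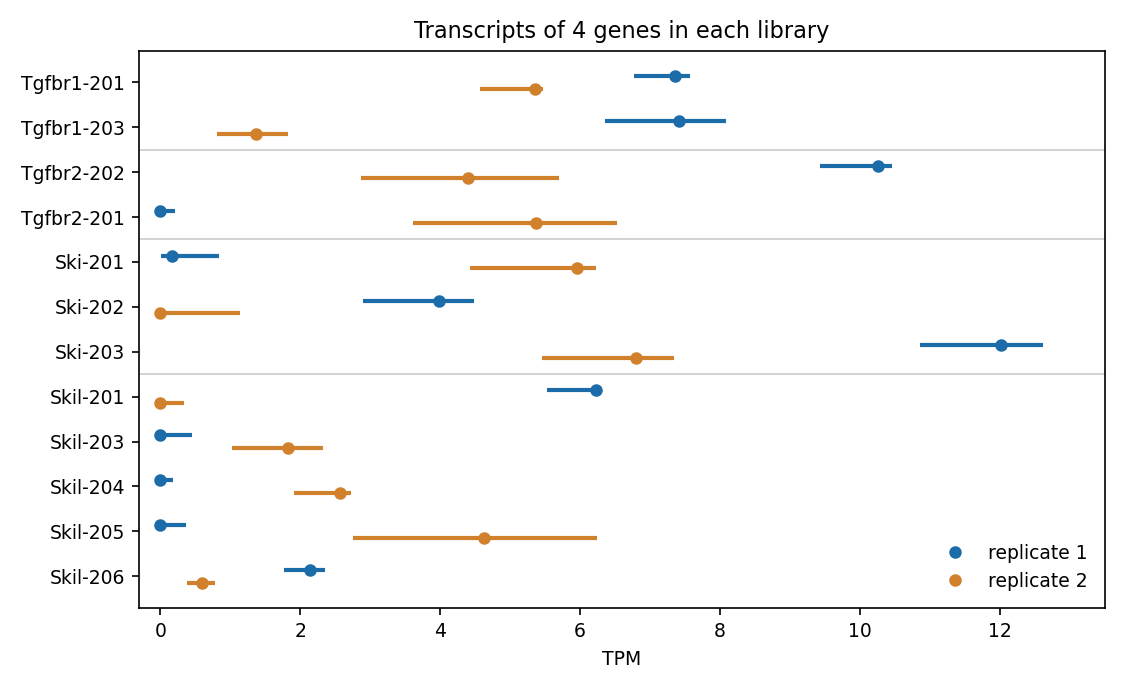
TPM of the main transcripts of Tgfbr1, Tgfbr2, Ski and Skil in replicate 1 (blue, upper) and replicate 2 (orange, lower); horizontal bars are the deposited lower and upper bounds. Tgfbr2-201, at 0 TPM in replicate 1 and 5.37 in replicate 2, and Skil-201, at 6.23 and 0 TPM, are read in 1 library only.

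Such changes of form were common in these libraries. Of the 46 transcripts of the 10 genes, 18 (39.1%) had counts in replicate 1 and 30 (65.2%) in replicate 2. Over all multi-transcript genes detected in both libraries the shares were 45% and 71.2%. The transcript of highest TPM was the same in both libraries for 6 of the 10 genes and another for 4 (Tgfbr1, Tgfbr2, Smad4 and Skil), while 48.2% of 7571 genes had another. The share among the 10 genes is near that background.

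Of the 10 ratios compared within a library, 6 had the same sign in both libraries and a mean larger than their SD. The smallest p that 2 libraries allow in an exact sign-flip test, two-sided, is 0.5, so none can pass a threshold. Tgfb1 stood above Tgfbr2 by a log2 ratio of 3.95 in replicate 1 and 3.68 in replicate 2 (3.81 ± 0.19, SD, n = 2, pseudocount 0.1 TPM), or 15.4-fold and 12.8-fold. Smad7 stood below Smad4 (-1.96 and -1.31) and above Smad6 (2.88 and 2.48), the other inhibitory Smad, which was at 0.60 and 0.99 TPM. Smad2 stood below Smad3 (-0.31 and -0.37) and Tgfbr3 below Tgfbr2 (-0.52 and -0.27). For Smad2 and Smad3 the coding transcripts alone gave -0.31 in replicate 1 and -0.01 in replicate 2, a mean of -0.16 ± 0.22, which is smaller than its SD.

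The other ratios had opposite signs in the libraries. Tgfbr1 over Tgfbr2 was 0.52 in replicate 1 and -0.53 in replicate 2, and Smad4 over Smad3 was 0.80 and -0.51. Summed Ski and Skil over summed Smad2 and Smad3 was 0.24 and -0.75. Over coding transcripts it was -0.99 and -1.12, so the repressors lay below the receptor-driven Smads in both libraries on that count. Summed Smad2 and Smad3 over summed Smad1 and Smad5, the Smads that BMP receptors act on, was -0.22 and 0.11. Over coding transcripts this last ratio was -0.14 and 1.76, and with a fixed length -0.15 and 0.77. Both branches were thus expressed, with Smad5 at 18.5 and 29.1 TPM and Smad1 at 5.54 and 5.79 TPM. The higher Smad5 level in replicate 2 did not hold on coding transcripts (18.5 and 5.48 TPM) or with a fixed length (22.6 and 11.3 TPM). Neither branch was higher in both libraries on these scales.

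**Figure D4:**
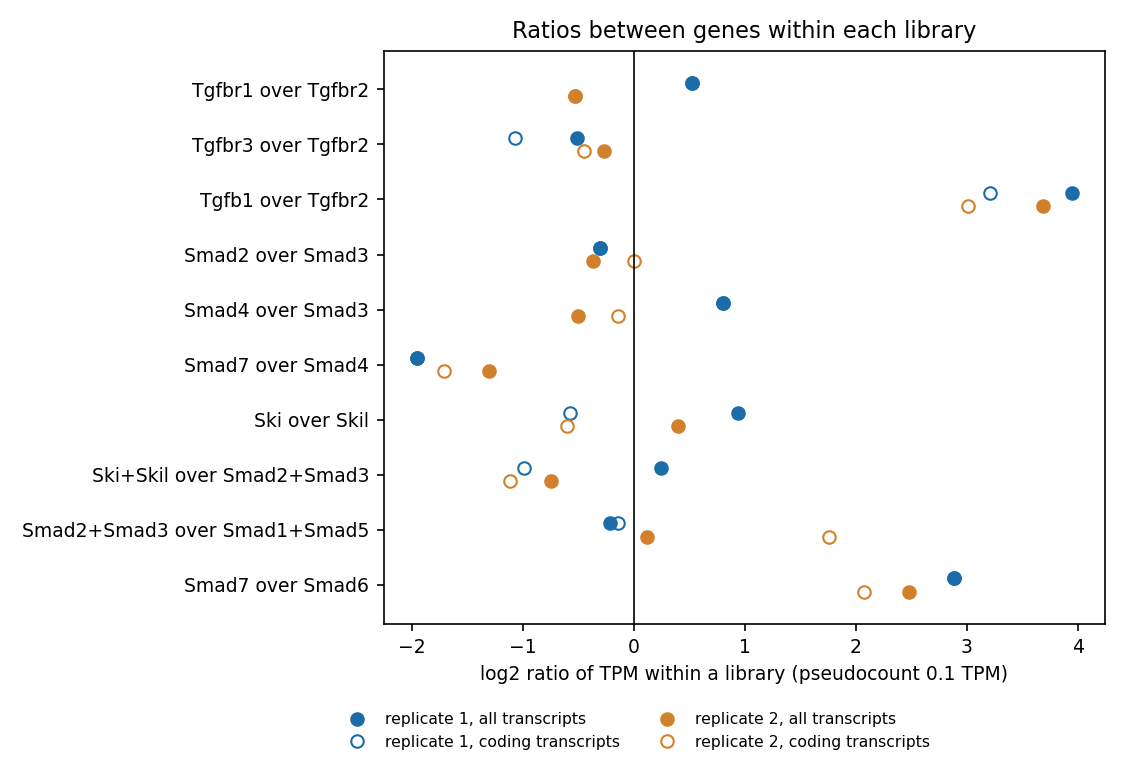
Log2 ratio of TPM between genes within replicate 1 (blue) and replicate 2 (orange); filled circles use all transcripts and open circles coding transcripts, hidden where equal. Tgfb1 over Tgfbr2 is far to the right of 0 (3.95 and 3.68), and Ski over Skil changes side from 0.94 and 0.39 over all transcripts to -0.58 and -0.61 over coding ones. In replicate 2, 4.63 of the 9.12 TPM of coding Skil are on the short model Skil-205.

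Ordered by mean TPM, the 10 genes ran Tgfb1, Smad4, Smad3, Ski, Smad2, Tgfbr1, Tgfbr2, Skil, Tgfbr3 and Smad7. Of the 9 neighbouring pairs, Tgfb1 and Smad4, Tgfbr2 and Skil, Skil and Tgfbr3, and Tgfbr3 and Smad7 had ranges over the libraries that did not overlap. Tgfbr2 and Skil were separated only narrowly, 9.77 TPM being the lowest level of Tgfbr2 and 9.70 TPM the highest of Skil. Other scales ended these separations below Tgfbr2. By posterior mean TPM, the lowest level of Tgfbr2 was 9.33 and the highest of Skil 9.46, so they overlapped. With a fixed length Skil (9.55 and 4.98 TPM) overlapped Tgfbr3 (7.22 and 8.65 TPM), and on coding transcripts Tgfbr3 (4.82 and 7.10 TPM) overlapped Smad7 (5.07 and 4.49 TPM). From Smad4 down to Tgfbr2 neighbours overlapped, and their order was not settled by these libraries.

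Between the libraries the median difference of the 10 genes was -0.05 on the log2(TPM + 1) scale (replicate 1 minus replicate 2), beside 0.14 over the 10685 genes detected in both libraries and 0.10 over the 12862 detected in either. Its sign depended on the scale: with CPM after TMM normalisation the 10 genes had a median of 0.09, beside -0.03 for genes detected in either library, and with TPM rescaled to nuclear coding genes -0.22 beside -0.07. The median absolute difference was 0.32, beside 0.43 over genes detected in both libraries, as the 10 genes were, and 0.53 over those detected in either. Only Tgfbr1 was over 2-fold apart, higher in replicate 1 by 1.03, and none was over 2-fold higher in replicate 2. So 1 of 10 genes passed where 16.4% of genes detected in both libraries did. Of genes detected in either library 27.1% passed, 13.1% higher in replicate 1 and 14% higher in replicate 2. That call ends with posterior mean TPM, with count-based scalings and with a fixed gene length (0.68 with the last). Tgfb1 (0.33), Smad4 (0.40) and Tgfbr1 were higher in replicate 1, and Smad2, Smad3 and Tgfbr3 (-0.16) higher in replicate 2, by TPM, by rescaled TPM, on coding transcripts, with a fixed length and with TMM. Tgfbr2, Smad7, Ski and Skil changed sign among these scales, Ski with 0.32 by TPM and -0.44 on coding transcripts. The neutrophil and monocyte markers, 5.11 and 342.6 TPM in sum, were higher in replicate 2, as Smad2, Smad3 and Tgfbr3 were. The stem cell markers, 461.2 and 325.3 TPM in sum, were higher in replicate 1, as Tgfb1, Smad4 and Tgfbr1 were. Kit and Procr among them were higher in replicate 2. Of the 6 T and NK markers, 4 were over 2-fold higher in replicate 1 and 1 in replicate 2. The part of any of these cell types in the differences was not tested. Skil was -0.19 by TPM and 0.82 with a fixed length, and its mean transcript length was 6225 bases in replicate 1 and 2946 in replicate 2.

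Around these genes, 33 of 64 other genes of the pathway were detected in both libraries. The background for this count, and for those of the single lists below, is the 45.5% of protein coding genes that passed the same rule. Of the 20 genes of other ligands and of ligand activation, 4 were detected in both, and none of those was a ligand: Nrros (44.8 TPM in replicate 1 and 40.3 in replicate 2), which tethers latent TGF-beta 1 on myeloid cells, the precursor protease gene Furin (12.2 and 17.6 TPM), the latent TGF-beta binding protein gene Ltbp3 (8.73 and 9.90 TPM) and the integrin gene Itgav (5.26 and 6.93 TPM). Tgfb2 (0 and 0.17 TPM) and Tgfb3 (0 and 0.10 TPM) were not detected, and Lrrc32, another known tether of latent TGF-beta, and the integrin gene Itgb8 had no counts. Tgfb1 was thus the only TGF-beta ligand gene detected in both libraries.

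Of the 11 other receptor genes, 5 were detected in both libraries. Eng, which encodes the co-receptor endoglin, was higher than each of the 3 TGF-beta receptor genes, at 45.4 TPM in replicate 1 and 56.6 in replicate 2. Bmpr2 followed (14.2 and 8.38 TPM), then the activin receptor genes Acvr1b (6.24 and 4.85 TPM), Acvr2a (7.12 and 1.67 TPM) and Acvr2b (3.59 and 2.99 TPM). Acvrl1, the type I receptor that endoglin works with in endothelial cells, had no counts. That allows up to 0.0672 TPM in replicate 1 and 0.119 in replicate 2 by 3 counts, whereas the deposited upper bounds are wider, at 1.23 and 2.19 TPM. Neither covers losses before sequencing, and 10.7% of protein coding genes were counted in the second library alone, against 0.601% in the first alone. Smad9 likewise had no counts in either library.

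Of the lists of other pathway genes, regulators of the receptors and Smads had the largest share detected, with 16 of 18 detected in both libraries. Tab2, an adaptor of the kinase TAK1, was highest at 113.4 TPM in replicate 1 and 84.6 in replicate 2. Fkbp1a (41.7 and 25.3 TPM), whose product holds the type I receptor inactive, Usp15 (26.9 and 38.9 TPM), a deubiquitinase, and Tgif1 (38.3 and 25.8 TPM), a corepressor of Smads, came next. Each of these was above Smad2, Smad3 and Smad4 in both libraries by TPM over all transcripts. Other scales changed this in replicate 2. On coding transcripts Fkbp1a (16.28 TPM) lay below Smad2 (16.44 TPM) and Smad3 (16.5 TPM). With a fixed length Tgif1 (14.6 TPM) lay below Smad3 (16.2 TPM).

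Genes known to be induced by TGF-beta in other cells were mixed, with 6 of 11 detected in both libraries. Junb (30.1 and 19.4 TPM), Klf10 (11.2 and 8.05 TPM) and Cdkn1a (6.77 and 8.04 TPM), which encodes the cell cycle inhibitor p21, were present. Id2 was at 6.11 TPM in replicate 1 and 1.60 in replicate 2. Cdkn1c was detected in both, at 5.56 TPM in replicate 1 and 1.03 in replicate 2. Of the 11 genes, 3 had no counts in either library. Among them were Cdkn2b, which encodes the cell cycle inhibitor p15, and Ccn2, which encodes a secreted matrix protein. Most of these genes also answer to other signals, so their levels do not measure TGF-beta signalling.

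**Figure D5:**
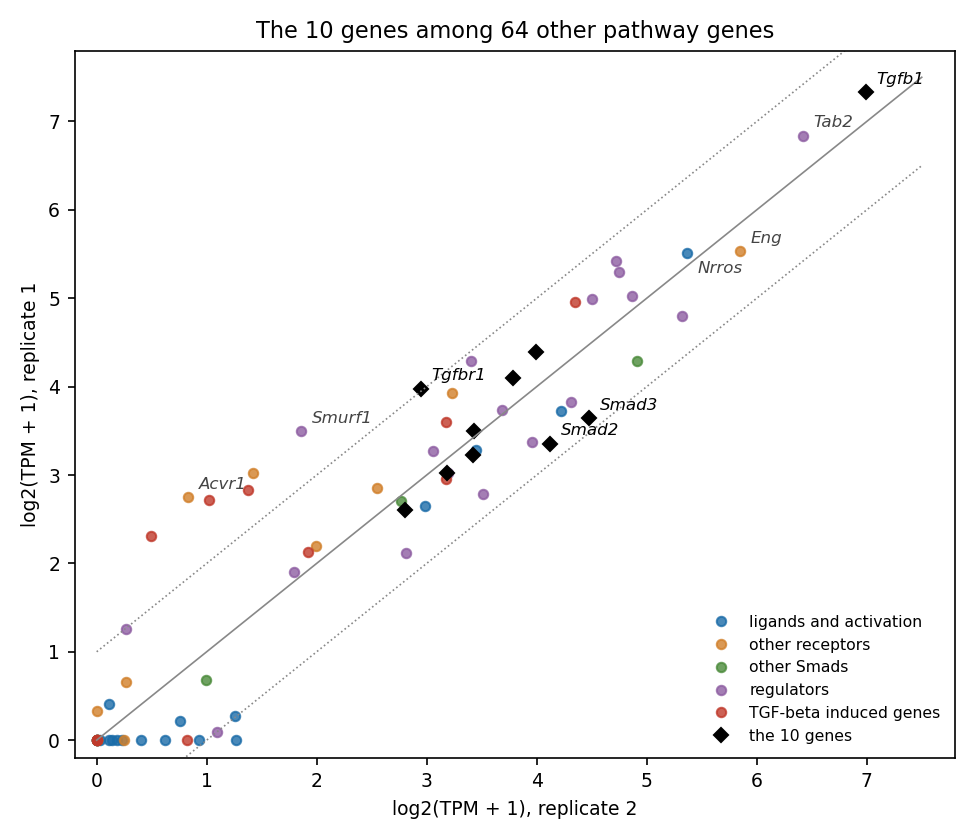
Log2(TPM + 1) in replicate 1 against replicate 2 for the 10 genes (black diamonds) and 64 other pathway genes coloured by list; the solid line marks equal levels and the dotted lines a 2-fold difference. Tgfbr1 lies just past the upper dotted line, Smurf1 (10.3 and 2.63 TPM) and Acvr1 (5.74 and 0.78 TPM) lie further above it, and several ligand genes lie at 0 in replicate 1.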

How the data were processed

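The material was total RNA of 100 stem cells per library, with 2 libraries. Expected counts were deposited by the authors per gene and transcript, beside TPM, posterior mean TPM with lower and upper bounds, and FPKM. The percent of a gene's signal on each transcript was deposited too. Per the deposited sample text the build is mm10 and the annotation GENCODE M4, and column names are those of RSEM, per the file headers. No label or header names the aligner, its version, the strand setting or the level of the bounds. Positions and transcript classes come from GENCODE M21 (GRCm38), where 43 of 46 transcripts of these genes have the deposited length, and promoters from RefSeq. Of 43346 gene identifiers, 42462 had a symbol. Rows that name no mouse gene held 0.012% and 0.00719% of counts. The members and lists were chosen with earlier results of these data known. All members are named, and from each list of other pathway genes the 4 of highest mean TPM, with Smad1, Smad5, Smad6, Eng and Acvrl1. Acvr1, Smurf1, Tgfb2, Tgfb3, Lrrc32, Itgb8, Acvr2b, Smad9, Cdkn2b, Cdkn1c, Ccn2 and the single cell type markers were named after their values were seen. Comparisons on coding transcripts and at a fixed length were added then. Replicate levels are given with SD. Ratios use a pseudocount of 0.1 TPM and differences 1 TPM. edgeR 4.0.16 (TMM) and DESeq2 1.42.0 (size factors) scaled rounded expected counts for alternatives. PCR copies are not separate molecules, so limits drawn from 0 counts cover counting error only. Transcripts shown beyond the 2 of highest mean TPM per gene were also chosen after their values were seen.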

Additional observations from a re-analysis of the deposited data

How the results depend on the processing

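All 10 genes were detected in both libraries under every threshold tried, and the count of other pathway genes stayed within 1.5 times of 33. FPKM and TPM rescaled to nuclear coding genes moved none of the 10 ratios by more than its SD. That outcome was fixed in advance and is no check, since such scaling cancels in a ratio within a library, except through the pseudocount. The mean ratio of Tgfbr1 over Tgfbr2 was -0.01, of Smad4 over Smad3 0.15, of Ski and Skil over Smad2 and Smad3 -0.25, and of Smad2 and Smad3 over Smad1 and Smad5 -0.05. Coding transcripts alone gave -0.59 for Ski over Skil, which reversed it, -0.76 for Tgfbr3 over Tgfbr2, 3.11 for Tgfb1 over Tgfbr2, -0.16 for Smad2 over Smad3, -1.06 for Ski and Skil over Smad2 and Smad3, and 0.81 for Smad2 and Smad3 over Smad1 and Smad5. A fixed gene length gave 1.13, -0.60, 3.27 and -0.41 for the first 4 of these and 0.31 for the last. Transcripts of at least 1000 bases gave 1.13 for Ski over Skil, 3.11 for Tgfb1 over Tgfbr2 and -0.40 for Smad2 and Smad3 over Smad1 and Smad5. Smad7 over Smad6 was 2.21 with posterior mean TPM and 1.87 with a pseudocount of 1 TPM. No gene was over 2-fold apart (0 of 10) with posterior mean TPM, TMM, DESeq2 size factors or a fixed length. The cause was not tested. Leaving out a replicate leaves the other library's value: -0.53 to 0.52 for Tgfbr1 over Tgfbr2, -0.51 to 0.80 for Smad4 over Smad3, and as printed for the rest. No paired analysis was possible because there is only 1 group. Coding transcripts, a fixed length and the limit of 1000 bases were chosen after seeing the data.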
